A study of Mus musculus with 47 samples.

Results

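The Zfp genes are mouse genes for zinc finger proteins that carry a number in place of a family name. The genes described here were those with a RefSeq mRNA whose symbol is Zfp followed by digits, apart from Zfp36, Zfp42 and Zfp503, and whose 3′ UTR held a mean of at least 1000 sequenced T positions per library (CoverageOnTs, the T bases of the UTR covered by reads, counted once per read). For each gene the best covered transcript was used. This left 210 of 351 Zfp genes, within 14426 of 28190 mRNA transcripts that reached the same minimum. The coverage of reads chose the genes, so that their being detected is no result. Zfp934 and Zfp933 were just inside the minimum, at 1015.6 and 1015.7 covered T positions, and Zfp772 and Zfp976 just outside it, at 992.5 and 982.8. Of the 141 genes below the minimum, 30 had no covered T position in any library. The minimum was reached in both states by 189 genes, at D0 alone by 13 and at D6 alone by 8.

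Most Zfp proteins are built from C2H2 fingers, small loops that each hold a zinc ion with a pair of cysteines and a pair of histidines and that read a few bases of DNA when placed in a row. Many also start with a KRAB box, which recruits Trim28 and, through it, Setdb1 and heterochromatin proteins to silence the DNA that the fingers bind, often retroelements or imprinted genes. KRAB genes multiplied by local duplication and lie in clusters. Other Zfp proteins are single-copy transcription factors, or act in the cytoplasm on RNA and on ribosomes. KRAB zinc finger mRNAs are known from other cells to be short-lived.

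The libraries were of P19 cells, an established line of mouse embryonal carcinoma with wild-type genotype, before differentiation (D0) and after 6 days in NDiff 227 medium with retinoic acid, which turns these cells toward neurons (D6). RNA was labeled with 4-thiouridine (4sU), which reads as T>C conversions after alkylation, and sequenced from the 3′ end (SLAM-seq). In the catabolic arm cells were labeled for 15 h and then moved to medium with UTP for the chase. In the anabolic arm label was taken up from 0 h on. D0 cells were given 20 µM 4sU and D6 cells 500 µM, as the study's methods state, so that dose and state cannot be told apart in any comparison of labeling between them. Each arm had 4 time points per state, for which labels and methods give different hours between the first and last, here called 0 h, the second, the third and 9 h. There were 3 libraries per group (24 at D0 and 23 at D6, since the third D6 chase point had 2). The study calls its replicates biological, but neither the labels nor the methods tie the libraries to separate cultures, and p-values measure the spread between these libraries.

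Total counts ranged from 2212388 to 16956649 per library, with medians of 10379632 at D0 and 5593651 at D6. In 6 D6 libraries between 12.9% and 28.9% of the transcripts tested had no read, and 33 to 82 of the Zfp genes were among them. They include both libraries of the third D6 chase point. The shares of reads, the fit over libraries of both arms and the pooled uptake shares are also given without them. The other D6 chase and uptake values include them, and the third D6 chase point has no other library. The neuronal markers Map2, Tubb3, Stmn2, Dcx and Elavl3 summed to 295 to 475 counts per 1000000 reads (CPM) at D0 and 3852 to 5450 at D6, and 5 of 5 were higher at D6. The pluripotency markers summed to 517 to 1183 at D0 and 238 to 608 at D6. Of these, Pou5f1 and Utf1 had log2 changes of -6.84 and -8.07 without 4sU and were called lower, and Nanog one of -6.59 in a fit of 41 libraries. Sox2 had a log2 change of -0.37 without 4sU and was not called, and was called lower after 15 h of 4sU (-0.92, adjusted p = 0.0411). Zfp42 had no read in any library. Summed glial markers were at 74.8 to 152 and 2.1 to 92.9 CPM, with Aqp4 at 0. Summed endoderm markers were at most 5.66 and 19.9, with Sox17 at 0, and mesenchymal markers were at 54.7 to 116 at D0 and at most 22.3 at D6. The part of these markers in the Zfp results was not tested, and in bulk RNA fewer cells of a type and less RNA per cell cannot be told apart.

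The 3′ UTRs of the Zfp genes had a median length of 1496 bases (73 to 11777), against 1206 for all transcripts at the coverage minimum, and a T content of 29.6% against 29.5%. Their median coverage was 3415 T positions per library against 5793, so that single genes were measured less precisely than the typical mRNA. Only 26 held 10000 or more. Zfp462, with 50980, was the best covered. In the encoded proteins a search for the C2H2 spacing found a median of 10 fingers per gene, and up to 36 in Zfp142, whereas 4 genes had none. A pattern for the KRAB A box, which misses divergent boxes, was present in 82 genes and absent from 128. The median number of fingers was 12 with the pattern and 8 without it. Of all members, 106 lay in 21 clusters of at least 3 genes with neighbours within 1 Mb, 62 of them with the KRAB pattern. Chromosome 7 held 44 genes and chromosome 17 held 27. Reads of 3′ UTRs that overlap a gene of the opposite strand (Zfp219 with Arhgef40, Zfp687 with Pi4kb, Zfp646 with Prss53, Zfp276 with Fanca) may be uncertain.

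Zfp mRNAs took a larger share of the reads after differentiation. Of every 1000000 reads on mRNA, 5037 to 5733 fell on the 210 genes in the D0 libraries (median 5393) and 6693 to 9092 in the D6 libraries (median 7904), with no overlap between the 24 and 23 libraries. Genes with the KRAB pattern held 1341 to 1813 at D0 (median 1564) and 1824 to 3420 at D6 (median 2715). Genes without it held 3485 to 4022 at D0 (median 3823) and 4667 to 5672 at D6 (median 5157). Neither pair of ranges overlapped. In the 17 D6 libraries left without the 6 named above, the share was again 6693 to 9092 (median 7904), with 1987 to 3420 on genes with the KRAB pattern. Leaving out the 10 best covered genes gave medians of 4211 and 6136.

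**Figure D1:**
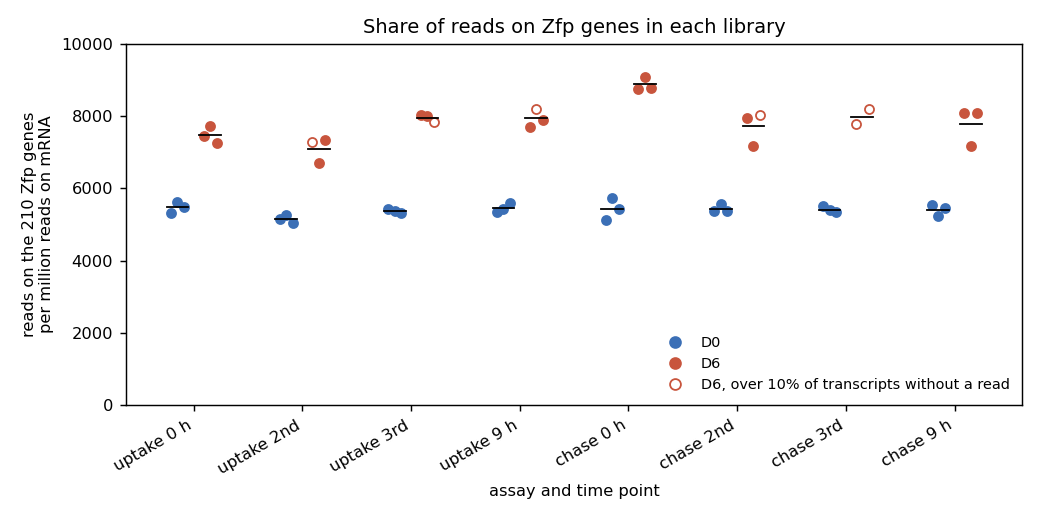
Reads on the 210 Zfp genes per 1000000 reads on mRNA (y axis, linear from 0) in each of the 47 libraries by arm and time point (x axis). Blue points are D0 and red points D6, open points are the 6 D6 libraries with over 10% of transcripts without a read, and lines are group means. All D6 libraries lie above all D0 libraries, the open points included.

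To see which genes carry this shift, D6 was compared with D0 in the unlabeled libraries of the anabolic arm (3 against 3) and, in separate libraries, after 15 h of 4sU (3 against 3). Without 4sU, 12 Zfp genes were higher at D6 and 2 lower among 209 tested (edgeR quasi-likelihood test, adjusted p under 0.05). Among all 16091 transcripts tested, 7.74% were called higher and 5.40% lower, and among those at the same coverage minimum 7.91% and 5.91%. After 15 h, 15 genes were higher and 3 lower among 206, against 7.33% and 7.55% of all 15655 transcripts, or 7.69% and 8.10% at the minimum. The share of Zfp genes called higher was thus near that of all transcripts in both comparisons, and fewer were called lower. At an unadjusted p under 0.05 there were 14.4% of Zfp genes against 25.7% of all transcripts without 4sU. After 15 h it was 20.9% against 27.4%. These differences in share were not tested. The middle of the distribution lay apart from that of all transcripts: the median log2 change was 0.55 without 4sU, with 142 of 209 genes above 0, and 0.70 after 15 h, with 157 of 206 above 0. For all transcripts at the minimum the medians were -0.07 and -0.03. Leaving out single libraries moved the 14 calls without 4sU to between 7 and 19 (7 without D6 replicate 37 or 38, 8 without replicate 39), and the 18 calls after 15 h to between 10 (without D6 replicate 7) and 22.

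A fit of libraries of all time points, chosen after seeing the data, has more libraries per state but mixes time points. Without the 6 D6 libraries named above it held 41, and it called 86 Zfp genes higher and 17 lower of 210, with a median log2 change of 0.55. There 23.8% and 28.8% of all 20766 transcripts were called higher and lower, and 27.02% and 30.96% of those at the minimum, whose median was -0.09. With all 47 libraries 73 Zfp genes were higher and 13 lower, against 21.2% and 27.7% of all transcripts. The 41 libraries included those of the former comparisons, so that these calls are no separate evidence.

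**Figure D2:**
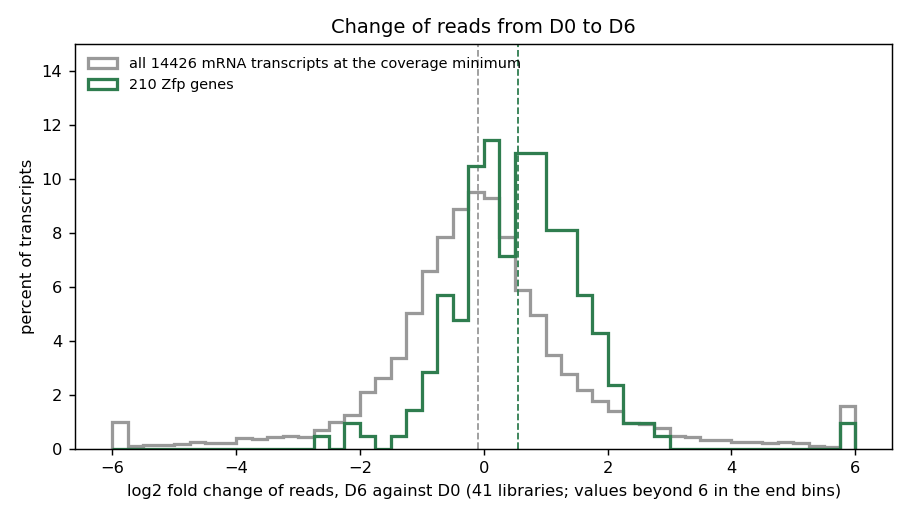
Percent of transcripts (y axis) by log2 fold change of reads at D6 against D0 in 41 libraries (x axis, bins of equal width with values beyond 6 in the end bins). The green line is the 210 Zfp genes, the grey line all 14426 mRNA transcripts at the coverage minimum, and dashed lines are the medians, 0.55 and -0.09.

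The same 9 genes were called in both comparisons, which share no library, each time in the same direction: 9 of the 14 called without 4sU (64.3%) and 9 of the 18 called after 15 h (50.0%). Over all transcripts tested in both the shares were 65.6% of 2034 and 57.8% of 2307, with none called in opposite directions, so that the overlap of the Zfp genes was near that of other mRNAs or below it. Zfp568 and Zfp593 were lower at D6. Zfp148, Zfp292, Zfp386, Zfp397, Zfp462, Zfp811 and Zfp871 were higher.

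Zfp568, a KRAB protein that represses a placental transcript of Igf2 and that embryos need for gastrulation, lies on chromosome 7 (3′ UTR chr7:30023648-30028282, mm10, plus strand). Without 4sU it was at 114, 118 and 147 CPM, here with TMM library sizes, at D0 and at 3.65, 12.1 and 13.3 at D6, a log2 change of -3.75 ± 0.52 (SE, adjusted p = 0.000986). After 15 h it was at 88.9, 132 and 195.5 at D0 and 11.01, 22.2 and 55.9 at D6, a change of -2.26 ± 0.57 (adjusted p = 0.0206). The highest D6 library of the second set stood closer to the lowest D0 library than in the first. Over all libraries Zfp568 ranged from 69.6 to 195.5 CPM at D0 (median 130.5) and from 0.82 to 59.4 at D6 (median 19.5), and the states did not overlap.

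Zfp593, a small protein with a single finger that takes part in the assembly of the large ribosomal subunit, lies on chromosome 4 (chr4:134243306-134244788, minus strand). It was at 98.4, 133.4 and 134 CPM at D0 without 4sU and at 32.9, 41.2 and 46.1 at D6 (log2 change -1.66 ± 0.34, adjusted p = 0.00919). After 15 h it was at 113, 155 and 174 at D0 and 22.6, 26.3 and 42.2 at D6 (-2.32 ± 0.37, adjusted p = 0.00178). All D6 libraries were below all D0 libraries in either set, and over the 47 libraries the highest D6 value, 60.1, lay below the lowest D0 value, 82.3.

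Of the genes higher in both sets, Zfp811 had the largest log2 change without 4sU and Zfp386 after 15 h. Zfp811, a KRAB gene on chromosome 17 (chr17:32795676-32800382, minus strand) was at 23.4, 27.7 and 34.96 CPM at D0 without 4sU and at 96.4, 192 and 204 at D6 (log2 change 2.48 ± 0.39, adjusted p = 0.00197). After 15 h it was at 27.7, 34.9 and 39.2 at D0 and 203, 238 and 264 at D6 (2.76 ± 0.30, adjusted p = 0.000135). Its levels did not overlap between the states in 47 libraries. Its neighbour Zfp871 (chr17:32765496-32774351, minus strand), also with a KRAB box, changed less: it was at 108, 139 and 158 CPM against 234.5, 266 and 373 without 4sU (1.05 ± 0.29, adjusted p = 0.0357), and 133, 139 and 231 against 337.5, 353 and 358 after 15 h (1.02 ± 0.28, adjusted p = 0.0297). Its states overlapped over all libraries, where D0 reached 231 and D6 went down to 118.

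Zfp386, a KRAB gene on chromosome 12 (chr12:116058953-116063209, plus strand), was at 16.4, 17.1 and 35.04 CPM at D0 and 87.2, 92.8 and 146 at D6 without 4sU (2.19 ± 0.46, adjusted p = 0.00968), and at 15.03, 15.6 and 37.9 against 122, 188 and 226 after 15 h (2.92 ± 0.46, adjusted p = 0.00154). The 3 D6 libraries of each set were all above the 3 D0 libraries.

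The others called higher in both sets were without the KRAB pattern. Zfp292, a large transcription factor linked to brain development (chr4:34803110-34804960, minus strand), was at 39.8, 62.1 and 69.0 CPM at D0 and at 158, 161 and 179.5 at D6 without 4sU (1.497 ± 0.32, adjusted p = 0.0118). After 15 h it was at 19.99, 31.7 and 35.3 against 137, 146 and 167 (2.35 ± 0.34, adjusted p = 0.000954). Zfp148, which binds GC-rich promoters (chr16:33497345-33503903, plus strand), was at 43.6, 43.9 and 53.6 against 123, 132 and 154 (1.49 ± 0.31, adjusted p = 0.0104), and after 15 h at 44.3, 50.4 and 51.6 against 113, 127 and 139 (1.34 ± 0.31, adjusted p = 0.0132). The states of Zfp148 did not overlap in 47 libraries.

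Zfp462, a protein of 33 fingers that acts in neural development and heterochromatin (chr4:55080874-55083563, plus strand), was at 139, 209 and 269 CPM against 407, 441 and 467 without 4sU (1.05 ± 0.27, adjusted p = 0.0294), and at 140, 173 and 175 against 307, 371 and 452 after 15 h (1.19 ± 0.24, adjusted p = 0.00757). Zfp397, a SCAN domain gene, was at 14.4, 16.3 and 24.6 against 45.8, 58.6 and 87.4 (1.74 ± 0.51, adjusted p = 0.0488) and at 3.05, 12.9 and 18.6 against 55.5, 72.3 and 85.2 (2.58 ± 0.66, adjusted p = 0.0226). None of these groups of 3 overlapped.

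With single libraries left out, Zfp292, Zfp593 and Zfp811 were called in all 12 such fits. Zfp148 lost its call without D6 replicate 37 (log2 change 1.39) and, after 15 h, without D6 replicate 7 (1.32), and Zfp386 without D6 replicate 38 (1.93). Zfp568 held without 4sU in all 6 fits but lost its call after 15 h without D6 replicates 7 (-2.03) or 8 (-1.82) or D0 replicates 26 (-1.90) or 27 (-2.32). Zfp462 held after 15 h in all 6 but was lost in 4 of 6 without 4sU (without D6 replicates 37, 38 or 39 or D0 replicate 55). Over the 6 fits without 4sU its log2 change lay between 0.85 and 1.28. Zfp871 was lost in 5 of 6 in either set, being called only without D0 replicate 56 or D0 replicate 26 (0.85 to 1.205 and 0.87 to 1.36), and Zfp397 in 5 of 6 (1.46 to 2.02; called only without D0 replicate 56) and, after 15 h, without D6 replicates 7 or 9 or D0 replicate 27 (2.19 to 3.15 over the 6). None of these 9 genes turned its sign in these fits, but they had been chosen by their calls in the same libraries.

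**Figure D3:**
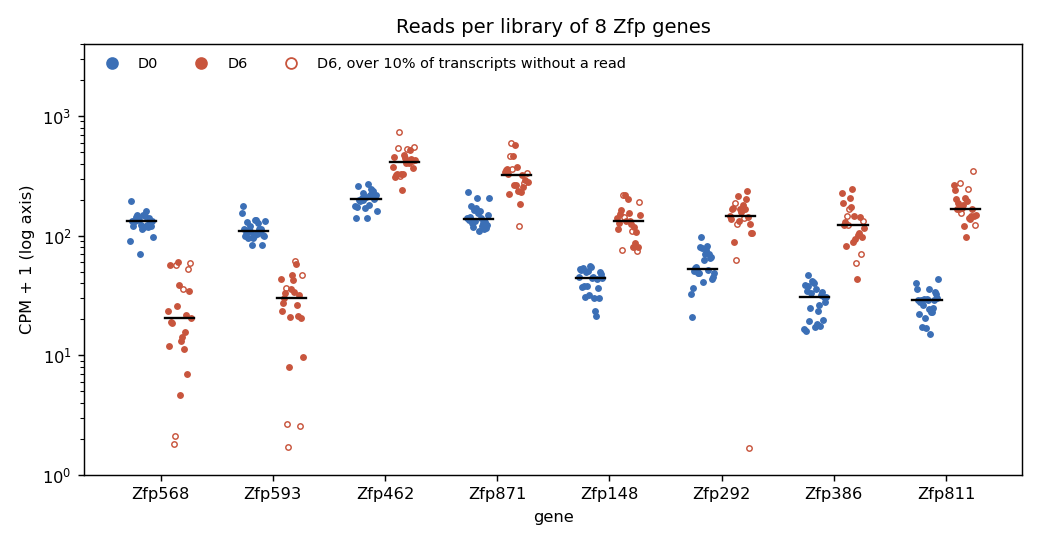
CPM plus 1 (y axis, log scale) of 8 of the genes called in both comparisons (x axis) in each of the 47 libraries. Blue points are D0, red points D6, open points the 6 D6 libraries with over 10% of transcripts without a read, and lines are medians. Zfp568 and Zfp593 lie lower at D6, and Zfp148 and Zfp811 higher, with no overlap.

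Promoter sequences are shown for 3 of the genes higher at D6. The 250 bases before a RefSeq start site (GRCm38.p6) were available for 169 of the 210 genes, with 212 promoters, and these 3 were chosen to run from few to many CG, which are in capitals, so that their spread is no result.

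Zfp811, chr17:32809932-32810181, minus strand: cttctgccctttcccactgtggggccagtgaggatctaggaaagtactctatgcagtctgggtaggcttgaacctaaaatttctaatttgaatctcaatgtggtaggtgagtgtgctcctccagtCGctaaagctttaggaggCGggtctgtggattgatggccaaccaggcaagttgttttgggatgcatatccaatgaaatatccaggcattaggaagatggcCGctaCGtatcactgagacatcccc

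Zfp386, chr12:116047474-116047723, plus strand: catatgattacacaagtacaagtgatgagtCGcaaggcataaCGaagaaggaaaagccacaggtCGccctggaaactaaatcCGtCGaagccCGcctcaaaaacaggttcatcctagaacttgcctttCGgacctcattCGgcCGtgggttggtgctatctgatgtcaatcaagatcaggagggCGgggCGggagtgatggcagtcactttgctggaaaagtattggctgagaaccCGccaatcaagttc

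Zfp292, chr4:34882949-34883198, minus strand: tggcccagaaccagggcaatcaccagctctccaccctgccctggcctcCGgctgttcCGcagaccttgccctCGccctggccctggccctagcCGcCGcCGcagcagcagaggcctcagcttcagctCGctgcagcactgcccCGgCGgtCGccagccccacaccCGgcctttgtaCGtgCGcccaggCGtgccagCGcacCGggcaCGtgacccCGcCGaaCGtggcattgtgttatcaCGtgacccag

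These hold 4, 12 and 21 CG. The other promoters of genes called in both sets hold 23 and 40 (Zfp148) and 9 and 8 (Zfp871). Over all promoters of Zfp genes the median was 13, against 17 in 9603 promoters of genes with a tested mRNA, and it was 9 with the KRAB pattern and 15 without it. The hexamer AGGTCA, the core of retinoic acid receptor sites, searched on both strands, was in none of the 3 promoters shown, nor in those of Zfp148, and was in 1 of the 2 promoters of Zfp871. It was in 9.43% of Zfp promoters (3.85% with the KRAB pattern and 12.7% without) and in 10.2% of the promoters of genes with a tested mRNA. A match of these letters is not a binding site, and its absence from 250 bases says nothing of the receptor.

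Other genes were called in one comparison only, and the difference between the comparisons was not tested. Without 4sU these were Zfp821 (log2 change 2.37, adjusted p = 0.00848), Zfp827 (2.53, adjusted p = 0.0142), Zfp512 (1.17, adjusted p = 0.0253), Zfp358 (1.66, adjusted p = 0.0375) and Zfp90. The last, a KRAB gene, had 3, 0 and 0 reads at D0 and 18, 63 and 401 at D6, a ratio of 200.1 after correction for library size (95% counting interval 68.1 to 974), with the D6 reads mostly in 1 library. After 15 h of 4sU, however, it had 33 to 56 reads in each D0 library. After 15 h the genes called in that set alone were Zfp113 (1.85, adjusted p = 0.00446), Zfp329 (2.54, adjusted p = 0.00847), Zfp422 (2.40, adjusted p = 0.00878), Zfp266 (1.45, adjusted p = 0.0175), Zfp937 (1.53, adjusted p = 0.0238), Zfp445 (1.34, adjusted p = 0.0288), Zfp771 (-1.47, adjusted p = 0.0384), Zfp362 (1.96, adjusted p = 0.0404) and Zfp663. Zfp663 had 0, 0 and 1 reads at D0 and 65, 128 and 156 at D6, but 45 reads in 1 of the unlabeled D0 libraries. It reached the coverage minimum only through D6 (mean coverage 86.9 at D0 and 2490 at D6), so that a difference was built into its choice.

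Several of these calls were lost when 1 library was left out, with log2 changes that kept their direction. Without 4sU, Zfp821 was called in all 6 fits that left out 1 library. Zfp827 lost its call without D6 replicates 37 (2.53) or 39 (2.54), and Zfp90 without D6 replicates 38 or 39 or D0 replicate 57 (6.12 to 7.57). Zfp512 lost it without D6 replicates 37 or 38 or D0 replicates 55 or 57 (0.997 to 1.21), and Zfp358 in the same fits and without D6 replicate 39 (1.36 to 1.86). After 15 h, Zfp113, Zfp329, Zfp422 and Zfp663 were called in all 6. Zfp266 lost its call without D6 replicate 9 (1.31) or D0 replicate 27 (1.19), Zfp445 without D6 replicates 7 or 8 or D0 replicates 25 or 27 (1.13 to 1.47), and Zfp937 without D6 replicates 7, 8 or 9 or D0 replicate 27 (1.38 to 1.67). Zfp362 was called only without D0 replicate 26 (1.73 to 2.10 in the other fits), and Zfp771 only without D6 replicate 8 (-1.61 to -1.27).

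Genes with known roles were grouped by lists. In each list the count in the 41 libraries is given, since most members were not called in the smaller comparisons. As given above, 27.02% of all transcripts at the minimum were called higher there and 30.96% lower, so that small counts in a list say little. Of 8 genes that silence imprinted genes or retroelements, 6 were members, of which 1 was higher and 1 lower. Zfp445, which with Zfp57 keeps imprints, had a log2 change of 0.95 ± 0.10 and Zfp568 of -2.72 ± 0.22. Zfp809, which silences proviral DNA, had -1.04 ± 0.55 and was not called, nor were Zfp708, Zfp932 and Zfp961. Zfp57 (mean coverage 765.7) and Zfp819 (0) were below the minimum. Of 4 genes tied to the pluripotent state, 3 were members and 1 was lower: Zfp217, an oncogene that binds corepressors, at -0.78 ± 0.27. Zfp281 (-0.21 ± 0.18), a factor of the pluripotency network, and Zfp143 (-0.38 ± 0.46) were not called, and Zfp296 (mean coverage 44.9) was below the minimum.

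Of 7 genes of neural development, 6 were members, of which 4 were higher and 1 lower. Zfp536, which restrains neuronal differentiation, had a log2 change of 2.83 ± 0.44, Zfp521, which drives neural progenitors, 1.76 ± 0.34, Zfp292 1.47 ± 0.12 and Zfp462 0.91 ± 0.08. Zfp423, needed for cerebellar progenitors, was lower (-0.52 ± 0.14), and Zfp335 was not called. Zfp365 (mean coverage 175) was below the minimum. In the Z3 chromatin complex the partners differed: Zfp532 was higher (1.205 ± 0.31), Zfp687 lower (-0.82 ± 0.22), and Zfp592 had -0.24 ± 0.21 without a call. The reads of Zfp687 may be uncertain because of its overlap with Pi4kb. Of 11 genes that act on RNA, ribosomes or in the cytoplasm, 6 were lower and 1 higher. The lower ones were Zfp593 (-2.07 ± 0.16) and Zfp622 (-0.74 ± 0.15), both factors of large ribosomal subunit assembly, Zfp598 (-0.72 ± 0.19), the ubiquitin ligase that senses collided ribosomes, Zfp207 (-0.74 ± 0.14), a spindle assembly protein, Zfp106 (-0.73 ± 0.25), an RNA-binding protein, and Zfp830 (-0.42 ± 0.16), a splicing protein. Zfp91, a ubiquitin ligase, was higher (0.54 ± 0.11). With all 47 libraries 4 of these were lower, since Zfp598 (-0.46) and Zfp830 (-0.36) were not called. In the silencing list 2 were lower in that fit, Zfp809 (-1.51) besides Zfp568. Except for Zfp445 after 15 h and Zfp292, Zfp462, Zfp568 and Zfp593 in both, none of these genes was called in the comparisons of 3 against 3 libraries.

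Features of the genes were compared as descriptions. In the 41 libraries the median log2 change was 0.83 for the 82 genes with the KRAB pattern (39 higher, 5 lower) and 0.35 for the 128 without (47 higher, 12 lower). It was 0.82 for the 105 genes with a 3′ UTR over the median length (56 higher, 7 lower) and 0.27 for the others (30 higher, 10 lower), and 0.82 for the 113 with 10 or more fingers (53 higher, 5 lower) against 0.39 for the 97 with fewer (33 higher, 12 lower). In the comparisons of 3 against 3 libraries the split by the KRAB pattern was narrower, with medians of 0.60 with it and 0.50 without it in cells given no 4sU, and 0.73 and 0.61 after 15 h. By 3′ UTR length they were 0.76 and 0.34, and 0.87 and 0.47, and by fingers 0.69 and 0.38, and 0.77 and 0.43. In the 41 libraries, by T content the medians were 0.52 and 0.59, and by position in a cluster 0.57 (in) and 0.51 (out). The KRAB pattern goes together with more fingers and with position in a cluster, as given above. How 3′ UTR length and T content relate to these was not examined, and the features were not separated. The medians of the 21 clusters ran from 0.09 to 1.60, the middle one being 0.59, and 4 were over 1. Of these clusters 20 held a gene that was higher and 5 one that was lower. They held 3 to 13 genes each. Of all transcripts at the minimum 27.02% were higher in this fit and 30.96% lower, so that counts within clusters say little. The next pair is given because it holds genes called in both sets. The cluster of Zfp811 and Zfp871 on chromosome 17 (chr17:32765496-33631716) had 10 members, 9 with the KRAB pattern, a median of 1.19, and 7 higher and 0 lower. The cluster of Zfp568 on chromosome 7 (chr7:29777565-30107614) had 8 members, a median of 1.12, with 3 higher and Zfp568 alone lower.

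Trim28, the scaffold that binds the KRAB box, was lower at D6 in both comparisons. Of 16 corepressor and heterochromatin genes 15 reached the minimum (Cbx3 did not). Without 4sU, Trim28 was lower (log2 change -1.19 ± 0.26, adjusted p = 0.0117) and none was higher. After 15 h Trim28 was again lower (-1.53 ± 0.26, adjusted p = 0.00283) and the histone deacetylase Hdac2 higher (0.83 ± 0.25, adjusted p = 0.0488). In the 41 libraries 2 were higher and 5 lower, near the share of all transcripts called lower there, with a median of -0.14, Pphln1 of the HUSH complex (-0.95 ± 0.11) and Uhrf1 (-1.24 ± 0.23) among the lower. The C2H2 genes of the Zbtb, Zscan and Zkscan families, 36 at the minimum without Zbtb8os, which shares only the symbol, had medians of 0.45 without 4sU and 0.92 after 15 h. There 1 and 2 were called higher and 1 each time lower, the last being Zscan10 (-7.92 ± 0.60 without 4sU, adjusted p = 1.71e-05), a pluripotency factor. A shift of the median above 0 was thus seen in other C2H2 genes as well.

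At the third and 9 h points of the chase less label was left on Zfp mRNAs than on mRNA as a whole. This holds for pooled rates, in which well covered transcripts weigh most. Medians over single well covered transcripts, given below, lay closer together at 9 h and at D6. The pooled conversion rate (conversions on all members over their covered T positions) after 15 h of 4sU was 1.34% ± 0.07 at D0 (SD, n = 3), against 1.42% on all tested mRNA, and 4.68% ± 0.56 at D6 against 4.67%. At the second chase point 99.4% ± 3.7 of the 0 h rate was left on Zfp mRNAs and 99.2% ± 2.2 on all mRNA at D0, and 90.2% ± 16.1 (79.3 to 108.7) and 100.9% ± 11.2 (89.4 to 111.8) at D6, where the ranges overlapped, although the Zfp value was the lower in each of the 3 D6 libraries. At the third chase point 45.9% ± 2.4 of the 0 h rate was left on Zfp mRNAs at D0 (43.1 to 47.5) and 72.3% ± 1.6 on all mRNA (70.8 to 73.9). At 9 h 14.99% ± 2.9 was left (11.9 to 17.7) against 27.95% ± 1.2 (26.8 to 29.2). At D6 26.4% ± 7.6 (20.99 and 31.7, n = 2) was left at the third point against 48.6% ± 0.93, and 11.6% ± 0.86 (10.9 to 12.6) at 9 h against 18.5% ± 1.5 (16.9 to 19.9). At the third point and at 9 h the Zfp and total values did not overlap in either state. The SDs cover the chase libraries only, and both D6 libraries of the third point had many transcripts without a read. Zfp mRNAs are part of all mRNA and were read in the same libraries, and the difference was not tested. The conversions found without 4sU (0.154% at D0) were not subtracted. With them subtracted, 38.9% was left at the third point at D0, against 68.7% for all mRNA. At 9 h at D0 it was 3.97% ± 3.28 against 18.6% ± 1.3. At D6 it was 23.9% against 46.8% at the third point and 8.62% against 15.7% at 9 h.

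During uptake more label had been reached at the third point on Zfp mRNAs. At the third point of uptake the pooled rate was 0.907% ± 0.043 on Zfp mRNAs and 0.548% ± 0.014 on all mRNA at D0, and 2.81% ± 0.57 and 1.98% ± 0.34 at D6. As a share of the rate at 9 h this was 62.5% ± 3.0 (60.7 to 66.0) against 43.9% ± 1.1 (43.1 to 45.1) at D0, without overlap, and 78.2% ± 15.8 (60.3 to 90.4) against 54.5% ± 9.3 (44.2 to 62.3) at D6, where the ranges overlapped although Zfp mRNAs had the higher rate in each of the 3 libraries. Without the sparse libraries among them (D6 replicates 45 and 53) it was 81.6% ± 4.2 (78.6 and 84.6, n = 2) against 54.7% ± 3.6 (52.2 and 57.2). At the second point the rate was at that of unlabeled libraries at D0 (0.151%) and at 0.299% ± 0.033 at D6. Leaving out the 10 best covered genes gave 44.2% and 16.4% left at D0, 22.7% and 11.8% at D6, and 64.8% and 79.0% for uptake. Genes with the KRAB pattern kept 39.6% ± 4.8 (36.5 to 45.2) at the third D0 point and those without it 48.2% ± 5.2 (42.2 to 51.8), which overlap.

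**Figure D4:**
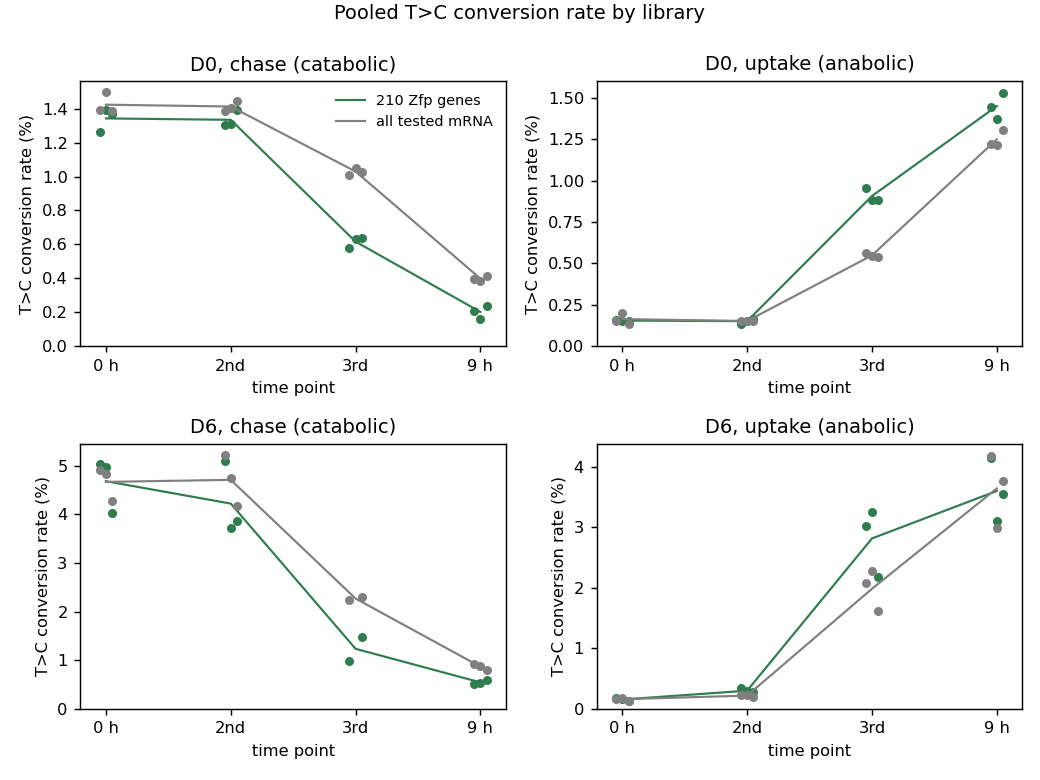
Pooled T>C conversion rate in percent (y axes, from 0 and on a scale of their own in each panel) by time point (x axes) for D0 (top) and D6 (bottom) in the chase (left) and uptake (right) arms. Green is the 210 Zfp genes, grey all tested mRNA, points are libraries and lines group means. At the third point green lies under grey in the chase and above it in uptake, except that at D6 the uptake points of both sets overlap.

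Gene by gene the test had little power. It compared the conversions of a gene at 9 h of chase with those at 0 h, with covered T positions and the median over transcripts as scale. At D0 1 of 204 Zfp genes, Zfp35, was called lower (edgeR, log2 change -9.03 ± 2.61, adjusted p = 0.0247) and 0 higher, against 0.890% and 5.05% of all 14160 transcripts. Its rates were 0.202%, 2.59% and 2.93% at 0 h and 0 in the 3 libraries at 9 h, so that the fitted change is no bound, and 4 of 6 fits without 1 library (replicates 26, 27, 34 or 36) lost the call. At an unadjusted p under 0.05 there were 19 genes (9.31%, against 17.01% of all transcripts), and limma called 0, as it did over all transcripts. The median log2 change relative to the scale was -0.91 over the Zfp genes (134 of 204 below 0) and -0.03 over all transcripts. The gap was smaller at 10000 covered T positions (26 Zfp genes), at -0.18 against 0.06, and with limma, at -0.52 against -0.16. Zfp622 (1.199%, 2.001% and 2.37% at 0 h and 0.0269%, 0.0439% and 0.0927% at 9 h) just missed the call, at an adjusted p of 0.05001. Without D0 replicate 35 there were 4 calls, Zfp35 and Zfp622 lower and Zfp467 and Zfp691 higher.

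A slope over the 4 time points with the hours of the methods called 8 genes lower (Zfp26, Zfp35, Zfp207, Zfp422, Zfp462, Zfp622, Zfp647 and Zfp689) and 3 higher (Zfp467, Zfp691 and Zfp773) of 210, against 2.75% and 7.43% of all 14413 transcripts. At D6 0 of 210 genes were called, against 1.59% of all transcripts higher and 0.0423% lower. An unadjusted p under 0.05 was found for 47 (22.4%), against 15.1% of all transcripts. As at D0, limma called 0, also over all transcripts. The median was -0.59 against -0.11. It was -0.05 against 0.17 at 10000 covered T positions (26 Zfp genes), and -0.85 against -0.24 with limma. For the difference of decay between the states edgeR called 0 genes, against 0.0208% of all transcripts, and limma 0, against 0%. At an unadjusted p under 0.05 in edgeR there were 21 (10.0%, against 9.97% of all transcripts). The conversion rate after 15 h, D6 against D0 relative to all transcripts, gave 0 calls by both tools (11, or 5.24%, at an unadjusted p under 0.05, against 6.99% of all transcripts), and 0% of all transcripts were called.

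In uptake at 9 h against 15 h of label, 0 genes were called at D0 or D6 by edgeR or limma (14 and 16, or 6.73% and 7.66%, at an unadjusted p under 0.05, against 6.99% and 4.37% of all transcripts), as were 0% of all transcripts in either state. Without the sparse D6 replicate 53 edgeR again called 0 at D6. At the third point of uptake at D0, chosen after seeing the data, 2 of 209 genes had more label than other mRNAs relative to 15 h, against 0.987% of transcripts higher and 1.37% lower. These were Zfp462 (1.34 ± 0.32, adjusted p = 0.0431) and Zfp24 (1.29 ± 0.28, adjusted p = 0.0260), a factor of the SCAN family. Zfp24 had rates of 1.07%, 1.42% and 1.44% at this point and 1.39%, 1.39% and 1.63% after 15 h of label, so that its uptake libraries were already near or within the range reached after 15 h. The median over Zfp genes was 1.15 (179 of 209 above 0) against 0.30. At D6 it was 0.62 against 0.24, with 0 calls.

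The 26 genes with at least 10000 covered T positions allow values for single genes. At the third D0 chase point they kept a median of 45.3% of their 0 h rate (13.5% to 131%), against 71.3% for 4720 transcripts of that coverage, and 18 of 26 were below that median. At 9 h they kept 15.6% against 18.4%, with 17 of 26 below it. At D6 it was 32.7% against 36.2% at the third point and 11.4% against 13.8% at 9 h, with 14 and 16 of 26 below. Zfp422, Zfp26, Zfp622, Zfp281 and Zfp207 kept the least at 9 h at D0. Zfp422 had 0%, 0.0137% and 0.0461% at 9 h against 1.35%, 1.40% and 2.96% at 0 h. Zfp593, which was lower at D6 in reads, had 0.164%, 0.399% and 0.937% at 9 h against 0.828%, 0.975% and 1.04% at 0 h, and 0.0728%, 0.112% and 0.33% at the third uptake point. Of its libraries at 9 h 1 lay within the range at 0 h and the others below it, whereas in Zfp422 all 3 were far below. Zfp568, also lower at D6 in reads, went from 1.25%, 1.40% and 1.42% to 0.0224%, 0.194% and 0.201%.

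**Figure D5:**
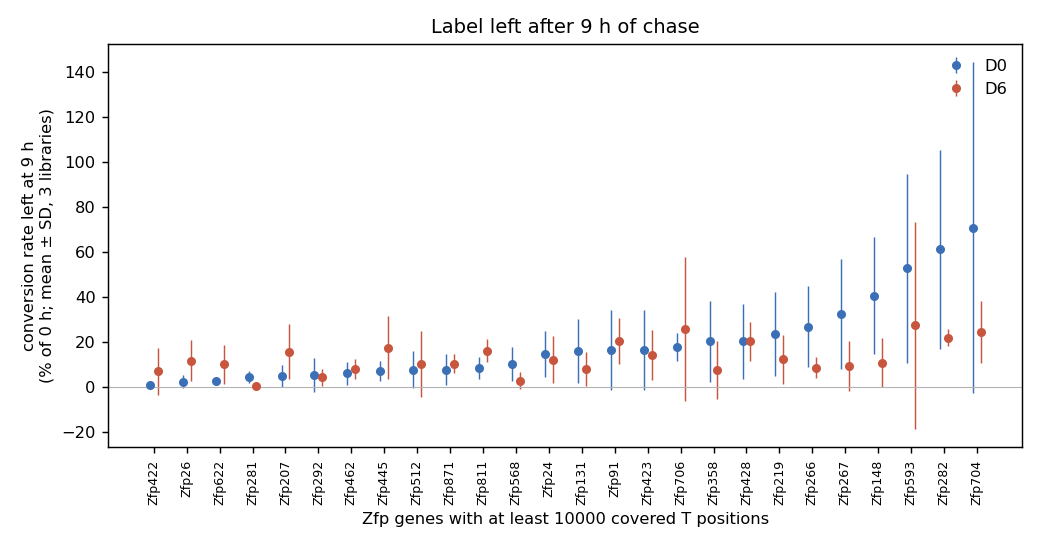
Conversion rate left after 9 h of chase as a percent of the mean rate at 0 h (y axis, linear) for the 26 Zfp genes with at least 10000 covered T positions (x axis, in the order of the D0 mean). Points are means and bars SDs over 3 chase libraries, blue for D0 and red for D6. The D0 means run from 1.05% to 70.97%, and the widest bars are those of Zfp704 and Zfp593.

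Decay half-lives from an exponential fit over 4 time points, at the hours of the methods, with an R squared of at least 0.6 were obtained for 15 Zfp genes at D0 (7.14%, against 14.9% of all transcripts) and 20 at D6 (9.52%, against 12.9%). With the times of the labels 25 and 27 genes had a fit, and the minutes depend on which hours are used. The number of fits also moved with single libraries. At D0 it was 14 to 29 (28, 28 and 29 without replicates 25, 26 and 27, all at 0 h). At D6 it was 14 (without replicate 7) to 31 (without replicate 10), with 30 without replicate 11, 28 without the sparse replicate 12 and 26 and 21 without the sparse replicates 14 and 15. The medians were 219 min at D0, against 285 min for all transcripts with a fit, and 212 min at D6 against 240 min. At D0 they ran from 134 min (Zfp367) to 308 min (Zfp639), and at D6 from 85.3 min (Zfp60) to 377 min (Zfp706). Only 4 genes had a fit in both states. Zfp871 had 230.1 ± 44 min (SE of the fit) at D0 and 214 ± 57 min at D6, Zfp207 256 ± 54 and 210.3 ± 49, Zfp622 219 ± 39 and 233 ± 65, and Zfp281 234 ± 34 and 138 ± 49. The differences are within or near the errors and were not tested. Genes chosen by a good fit are those whose label was clearly lost, so that these medians do not stand for all members.

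The reads of Zfp genes were also compared between labeled and unlabeled cells. After 15 h of 4sU against none, 0 Zfp genes were called at D0 (1 at an unadjusted p under 0.05, or 0.485% against 2.06% of all transcripts, and 0 by DESeq2) and 0 at D6 (8, or 3.86% against 5.83%, and 1 by DESeq2), against 0% and 0.0512% of all transcripts.

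Fast decay is often tied to AU-rich elements in the 3′ UTR, so the core TATTTAT was searched on the coding strand in 190 members with a GENCODE 3′ UTR. It was in 27.9% of them and 30.3% of 8729 genes with a tested mRNA. The Pumilio site TGTANATA was in 31.6% and 27.6%. The first match in a gene lower at D6 and in 3 genes higher at D6 is shown with 11 bases on each side, the match in capitals.

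Zfp568: ctaggactctgTATTTATtgtttatacag

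Zfp292: atttttgtataTATTTATtattgtaaatc

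Zfp811: tctttctagacTATTTATttcatgtgtgt

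Zfp871: acagtattttgTATTTATtgaaatgtttc

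They start at positions 1565, 345, 2638 and 876 of the UTR. The match is thus present in genes that moved in opposite directions, and it is a description, not a site.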

How the data were processed

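The authors trimmed and mapped the reads of 47 SLAM-seq libraries (QuantSeq FWD) with SLAMdunk and deposited, for each 3′ UTR interval of mm10, read counts, covered T positions and T>C conversions as counts, the conversion rate as a fraction, and library-scaled reads as CPM. Only the deposited counts were used, summed per RefSeq transcript; the deposited fraction and CPM columns were not used for results. CPM in the text were computed with TMM factors over 47 libraries. Reads were tested with edgeR 4.0.16 (quasi-likelihood, Benjamini-Hochberg over all transcripts), with DESeq2 1.42.0 as an alternative. Conversions were tested with edgeR with covered T positions as offset and a scale by the median over transcripts, limma 3.58.1 (rates with 0.5 conversions added) being the alternative, in R 4.3.3. Half-lives (at most 5000 min) were fitted in Python 3.11.15. Protein features came from GENCODE M21 coding sequences. No call was made where counts were too low for edgeR's filter. On simulated data with 100 changed transcripts per size, the reads test without 4sU recovered 44% and 92% at log2 changes of 1 and 2, and the decay test 4% and 47% at D0 and 1% and 36% at D6.

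The members and lists were chosen with earlier results of these data known. Named genes were up to 10 members with the largest change in each direction among those called in the reads without 4sU (12 were higher and 2 lower), called members of the labeling tests, the role lists and the genes beside the coverage minimum; Zfp871, those called only after 15 h, those of the slope, of the half-lives and of the third uptake point were named after their values were seen. Libraries were grouped by their labels; the dose of 4sU and the 15 h of labeling come from the methods. Intervals for ratios cover counting error only, since reads carried no molecular identifiers here.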

Additional observations from a re-analysis of the deposited data

How the results depend on the processing

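The number of Zfp genes called between the states without 4sU was 14 and became 25 with DESeq2. There 10.5% were higher and 1.44% lower, against 11.4% and 8.84% of all transcripts. The number became 86 with all 47 libraries under either TMM or RLE factors and 103 with 41 libraries. For these fits the shares of all transcripts are given above. Leaving out single libraries gave 7 to 19. After 15 h the 18 calls became 29 with DESeq2 and 10 to 22 without single libraries. With DESeq2 12.7% of Zfp genes were higher and 1.46% lower, against 10.9% and 10.3% of all transcripts. For reads after 15 h of 4sU against none, DESeq2 called 1 gene at D6 (higher, 0.490%, against 0.638% of all transcripts higher and 1.06% lower). The single call for decay at D0 became 2 lower with the pooled rate as scale, where 2.12% of all transcripts were lower and 2.30% higher. Without scale it became 28, all lower, as were 25.5% of all transcripts, and with limma 0, as for all transcripts. At 10000 covered T positions 2 of 26 were lower, against 3.45% of all lower and 13.8% higher. With 1 transcript per gene 2 were lower, against 0.966% and 5.35%. The slope gave 11 calls with the hours of the methods, with the shares given above. With those of the labels it gave 15 (4.29% lower and 2.86% higher, against 6.42% and 10.2%). The third time point gave 0, against 0.0633% of all lower, and leaving out single libraries 0 to 4. For decay at D6, 0 became 72 without scale (all lower, against 32.6%) and 1 with the slope over label times. The last was lower (0.476%, against 0.0977% of all transcripts lower and 0.544% higher). For label after 15 h, 0 became 25 without scale (all higher, against 25.7%), where the doses differ. Uptake at D0 gave 2 calls at the third time point. The 4 genes with half-lives in both states became 24 from 0 and 9 h only, 10 with the times of the labels, 86 without a minimum of R squared, and 2 to 6 without single libraries (2 without D6 replicate 16, 17 or 18). With the background subtracted, the label left was 38.9% at the third D0 point, 3.97% at 9 h at D0 and 8.62% at 9 h at D6. Uptake at the third D0 point was then 58.1% of that at 9 h. All tested mRNA had 68.7%, 18.6%, 15.7% and 35.4%, in that order. Without single libraries the Zfp shares without subtraction were 44.6% to 47.3%, 13.7% to 16.5%, 10.9% to 12.05% and 60.8% to 64.3%. Without the 10 best covered genes the median shares of reads were 4211 and 6136 per 1000000. For all 210 genes the medians were 5380 to 5406 and 7870 to 7931 without single libraries. No gene called in reads between 3 and 3 libraries, nor Zfp35, turned its sign under the alternatives run. These genes had been chosen by calls in libraries that the alternatives used again, so that this is little support. The all-library fits, the 41 libraries, the third time point and the pooled alternatives were chosen after seeing the data. The causes were not tested. No paired analysis was possible because each library has a number of its own. The difference of decay between states was also simulated, with a spread between libraries that was set in advance. A log2 change of 2 was recovered for 13% of simulated transcripts, and depth was not varied.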
